A study of Mus musculus with 10 samples.

Results

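A set of 10 genes of distal calcium and magnesium handling was followed in kidneys of control mice and of mice with a Cre-driven tubule knockout of Lkb1. The genes are the calcium channels Trpv5 and Trpv6, the calcium-binding proteins Calb1, S100g and Pvalb, the calcium exporters Slc8a1 and Atp2b1, and the magnesium genes Trpm6, Trpm7 and Cnnm2. They were chosen by name, with earlier results of these data known, and were sought through the array annotation. All 10 were found among 30142 genes, each with 1 row whose annotation gives that symbol alone.

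Expression was measured on Affymetrix arrays, 1 per kidney, as log2 values after RMA (robust multi-array average, which corrects background, brings the arrays to a common distribution and summarises the probes of a transcript). The knockouts were 5 mice with floxed Lkb1 (allele Stk11tm1.1Sjm) and the KspCre transgene, Tg(Cdh16-cre)91lgr, which expresses Cre from the promoter of the tubule cadherin Cdh16. The controls were 5 littermates that had no KspCre and carried Lkb1flox/+ or Lkb1flox/flox, and the labels do not say which control had which genotype. All mice were 5 weeks old, and every group carried at least 1 floxed allele, while Cre was present in the knockouts alone, so Cre and Lkb1 loss cannot be told apart. The titles speak of a knockdown and the strain label gives C57Bl/6N, but the growth protocol describes a knockout whose floxed line had a mixed background. The series' design text names MDCK cells, and the samples are labelled as mouse kidney. Stk11, the gene that encodes Lkb1, stood at 84.1% of its control level in the knockouts (log2 difference -0.25, SE 0.05, adjusted p = 0.00749 by limma), with no overlap between the groups. Whole-kidney RNA does not show which tubule cells lost Lkb1 or how much of the protein was left.

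In the distal convoluted and connecting tubules calcium crosses the cell in 3 steps: it enters through apical TRPV5 and TRPV6 channels, is carried across the cell bound to calbindins, and leaves on the blood side through the sodium-calcium exchanger NCX1 and the plasma membrane calcium pump. Magnesium enters the distal convoluted tubule through TRPM6, alone or with its relative TRPM7, and CNNM2 is a basolateral protein that magnesium handling there depends on. Parvalbumin marks the early part of the distal convoluted tubule. Loss of TRPM6 or CNNM2 function is known to cause magnesium wasting, and loss of TRPV5 causes calcium wasting.

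The upstream sequence of 4 members shows how unlike their promoters are, including those of the paralogs Trpm6 and Trpm7. The promoter table of RefSeq (GRCm38.p6, the build also called mm10) held 11 start sites for 9 of the 10 members, with no window for Calb1. Shown 5′ to 3′ are the 250 bases before a start site, with CG dinucleotides in capitals. They lie at chr17:81738388-81738637 (minus strand, Slc8a1), chr15:78206401-78206650 (minus strand, the outer of the 2 Pvalb start sites), chr19:18749480-18749729 (plus strand, Trpm6, a start site inside the annotated gene) and chr2:126876262-126876511 (minus strand, Trpm7).
Slc8a1: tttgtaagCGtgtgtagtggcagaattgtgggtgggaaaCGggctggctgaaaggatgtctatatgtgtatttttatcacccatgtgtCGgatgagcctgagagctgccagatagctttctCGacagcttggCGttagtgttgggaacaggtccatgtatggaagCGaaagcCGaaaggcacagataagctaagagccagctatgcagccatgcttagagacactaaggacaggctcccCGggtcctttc
Pvalb: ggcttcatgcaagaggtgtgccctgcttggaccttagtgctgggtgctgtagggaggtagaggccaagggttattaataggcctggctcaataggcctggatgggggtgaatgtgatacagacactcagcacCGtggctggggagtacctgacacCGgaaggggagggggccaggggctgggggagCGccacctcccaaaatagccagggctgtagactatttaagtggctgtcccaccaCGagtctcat
Trpm6: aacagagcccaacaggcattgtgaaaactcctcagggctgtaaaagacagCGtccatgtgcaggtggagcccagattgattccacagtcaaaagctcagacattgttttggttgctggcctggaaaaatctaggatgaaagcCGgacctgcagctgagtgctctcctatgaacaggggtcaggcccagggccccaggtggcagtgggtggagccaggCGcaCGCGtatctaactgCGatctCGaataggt
Trpm7: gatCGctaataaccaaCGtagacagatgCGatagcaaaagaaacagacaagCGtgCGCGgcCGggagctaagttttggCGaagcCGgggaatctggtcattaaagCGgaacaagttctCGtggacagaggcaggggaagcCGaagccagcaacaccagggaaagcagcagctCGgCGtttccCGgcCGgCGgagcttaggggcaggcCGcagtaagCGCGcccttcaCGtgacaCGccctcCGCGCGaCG

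Trpm7, a widely expressed channel, had 26 CG in this window, whereas Trpm6 had 7, Slc8a1 had 8 and Pvalb had 4. The median over 32851 RefSeq windows was 6. The calcium pump gene Atp2b1 had 43 and 41 at its 2 start sites and Cnnm2 had 19, while S100g had 2 and Trpv5 and Trpv6 had 1 each. The inner Pvalb start site had 23. The start sites of Trpv5, Cnnm2 and Atp2b1, like that of Trpm6, lie inside the annotated gene. A TATA box (TATAAA, either strand) was found in 1 of the 11 windows, that of Trpv5 at 43 bases before the start, against 12.4% of all windows. A full cAMP response element (TGACGTCA) was in 0 of the 11 and in 1.55% of all windows.

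Of the 10 members, 4 fell in the knockouts, 1 rose and 5 did not pass the test. Calb1, Slc8a1, Pvalb and Trpm6 were lower, and Trpv6 was higher. Calls are by limma at an adjusted p under 0.05, Benjamini-Hochberg over all genes, two-sided. Over all genes 8.03% were called, 2.67% lower and 5.35% higher. That share counts many genes at the level of the negative controls. With dim genes left out, 2665 of 19499 genes were called, and all 10 members were among those tested. After quantile normalisation of the values, 55.5% of all calls were increases against 66.7% as deposited. The number of genes called, 2420, was 1610 without control 3, 1526 without knockout 2 and 1588 without knockout 3.

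The groups did not overlap for 3 of the 10 members, each with all 5 knockouts below all 5 controls, where 3.50% of all genes were placed so and 8.57% did not overlap in either direction. The median log2 difference of the members was -0.24, against -0.03 over all genes, and 9 of the 10 differences were negative. Most genes of the array also had a negative difference, the 25th and 75th percentiles being -0.09 and 0.04. Trpv5 (-0.05), Atp2b1 (-0.02) and Trpm7 (-0.03) lay between these percentiles. Calb1, Slc8a1 and Pvalb passed under each of 16 alternative settings, 10 of which left out a kidney. Trpv5, Atp2b1 and Trpm7 passed under none of them. The setting with the brightest row per gene is no check on the members, since each has 1 row and its values stay the same. The number of members called was 3 without control 2, without knockout 1, without knockout 2 or without knockout 3.

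**Figure D1:**
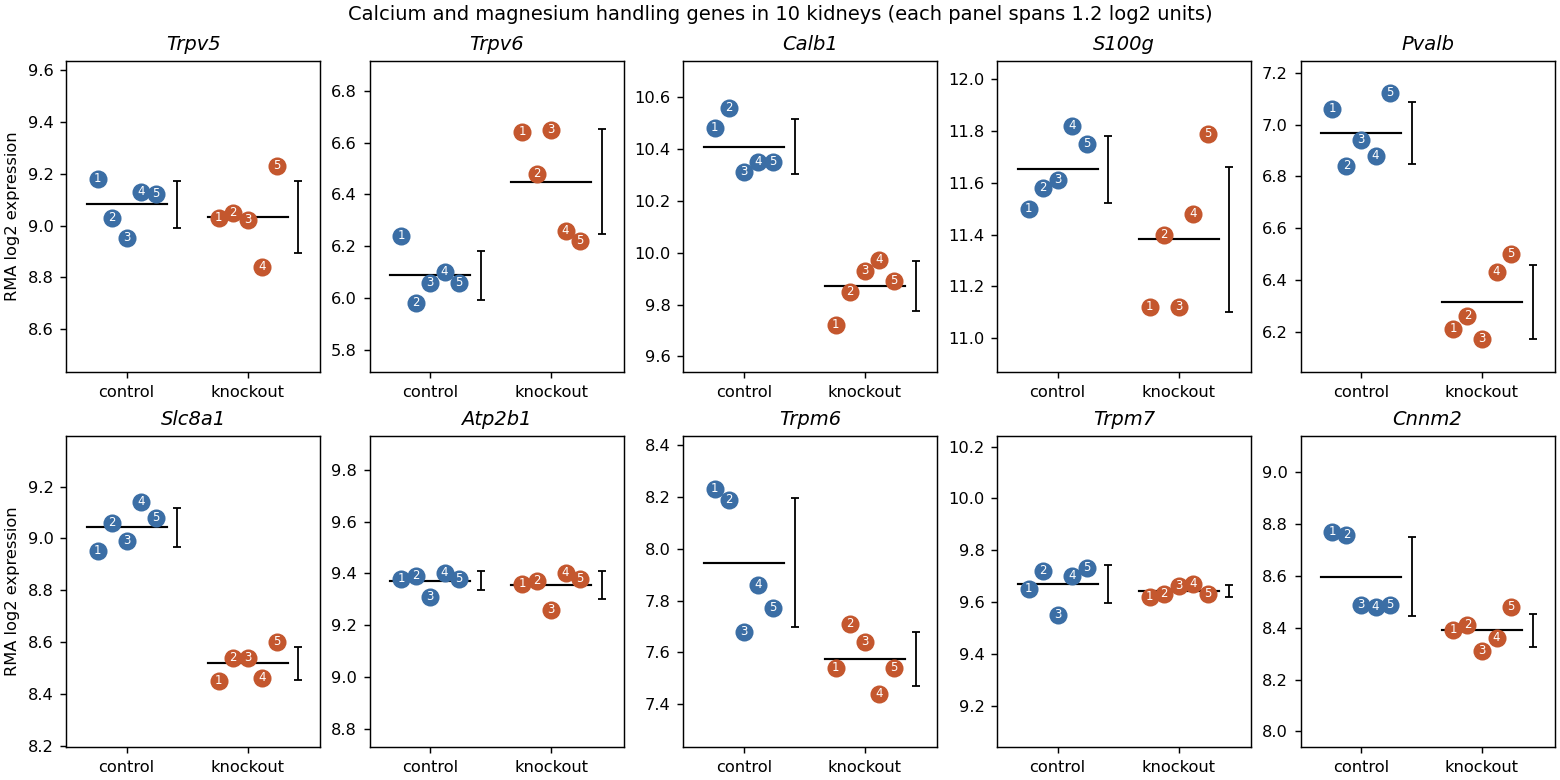
RMA log2 expression of the 10 genes in each kidney, with control (blue) and knockout (orange) kidneys numbered 1 to 5 as in the labels, the group mean as a line and the SD as a bar. For Calb1, Pvalb and Slc8a1 every knockout lies below every control, while the groups overlap for the other genes.

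**Figure D2:**
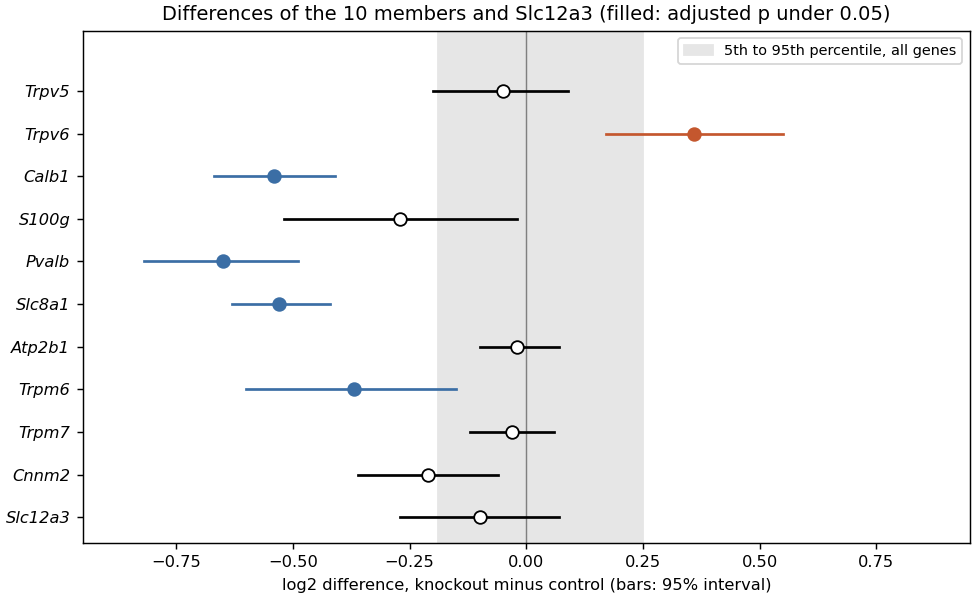
Log2 difference, knockout minus control, with the 95% interval of the fit for the 10 genes and for Slc12a3, a marker of the distal convoluted tubule. Filled points passed the adjusted threshold and the grey band holds the 5th to 95th percentile of all genes (-0.19 to 0.25). Pvalb, Calb1 and Slc8a1 lie furthest to the left and Trpv6 to the right.

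The 2 apical calcium channels are neighbours on chromosome 6, Trpv6 at 41620619 to 41636405 and Trpv5 at 41651661 to 41681224 (mm10), with 15255 bases and 0 other annotated genes between them. Trpv5, the main calcium entry channel of the distal tubule, measured 9.18, 9.03, 8.95, 9.13 and 9.12 in controls 1 to 5 and 9.03, 9.05, 9.02, 8.84 and 9.23 in knockouts 1 to 5. The knockouts spread on both sides of the controls, and the log2 difference was -0.05 (95% interval -0.20 to 0.09, adjusted p = 0.683 by limma). That interval runs from 87.3% to 107% of the control level.

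Trpv6, its close relative best known from the intestine, rose. Controls 1 to 5 measured 6.24, 5.98, 6.06, 6.10 and 6.06, and knockouts 1 to 5 measured 6.64, 6.48, 6.65, 6.26 and 6.22. Of the knockouts, 4 lay above every control, and knockout 5 lay just below control 1. The mean rose from 6.09 ± 0.09 to 6.45 ± 0.20 (SD, n = 5 each), by 0.36 on the log2 scale (SE 0.09) or 1.28-fold, with adjusted p = 0.0251 by limma and exact permutation p = 0.0159. The Trpv6 signal was dim, above 71.0% of the negative control probe sets in controls and 78.3% in knockouts, so the size of the change is uncertain. Its adjusted p by limma was 0.0553, 0.0606 and 0.0532 without control 2, 3 or 5, and 0.0615, 0.0629 and 0.0640 without knockout 1, 2 or 3.

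Calb1 encodes calbindin-D28k, the large calcium buffer and shuttle of the distal and connecting tubule, and lies on chromosome 4 at 15881264 to 15906709. It measured 10.48, 10.56, 10.31, 10.35 and 10.35 in controls 1 to 5 and 9.72, 9.85, 9.93, 9.97 and 9.89 in knockouts 1 to 5. The highest knockout was 0.35 below the lowest control on the log2 scale. Calb1 fell from 10.41 ± 0.10 to 9.87 ± 0.10 (SD, n = 5 each), to 68.8% of the control level (95% interval 62.9% to 75.3%; log2 difference -0.54, SE 0.06, adjusted p = 3.30e-04 by limma). The exact permutation p was 0.00794, the smallest that 5 against 5 kidneys allow.

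S100g encodes calbindin-D9k, a small vitamin D dependent calcium buffer, and lies on the X chromosome at 162961992 to 162964599. Its controls 1 to 5 measured 11.50, 11.58, 11.61, 11.82 and 11.75, and its knockouts 1 to 5 measured 11.12, 11.40, 11.12, 11.48 and 11.79. Knockouts 1 to 4 lay below every control, and knockout 5 lay among them. The log2 difference was -0.27 (SE 0.12, 95% interval -0.52 to -0.02) and did not pass after adjustment (adjusted p = 0.189 by limma). Without knockout 5 it was -0.37, with adjusted p = 0.0214 by limma.

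Pvalb, on chromosome 15 at 78191112 to 78206400, encodes parvalbumin, a fast calcium buffer of the early distal convoluted tubule. It measured 7.06, 6.84, 6.94, 6.88 and 7.12 in controls 1 to 5 and 6.21, 6.26, 6.17, 6.43 and 6.5 in knockouts 1 to 5. All knockouts were below all controls, by at least 0.34. Pvalb had the largest difference of the 10 genes and fell to 63.5% of the control level (95% interval 56.7% to 71.2%; log2 difference -0.65, SE 0.08, adjusted p = 4.13e-04 by limma, exact permutation p = 0.00794). Its mean was above 86.1% of the negative control probe sets in controls and above 75.6% in knockouts, so a dim signal limits the size of this change too.

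Parvalbumin is also a protein of fast skeletal muscle and of some neurons, so their markers were measured beside it. None of 6 skeletal muscle markers and none of 4 neuron markers passed by limma, and 0 of either list exceeded 95% of the negative control probe sets in controls. Pvalb itself did not exceed that level either (86.1%). The muscle markers Acta1 (87.4%) and Ckm (84.5%), named after their values were seen, were about as bright, and the rest of that list was dimmer (46.8% to 75.1%). These counts therefore cannot separate Pvalb from muscle signal, and the source of the Pvalb signal was not tested. The mean log2 level of the muscle list was 5.99 to 6.15 over controls and 6.00 to 6.15 over knockouts, and that of the neuron list was 5.48 to 5.61 and 5.43 to 5.57.

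On the blood side, the exchanger and the pump differed from each other. Slc8a1, on chromosome 17 at 81373105 to 81738387, encodes the sodium-calcium exchanger NCX1. It measured 8.95, 9.06, 8.99, 9.14 and 9.08 in controls 1 to 5 and 8.45, 8.54, 8.54, 8.46 and 8.60 in knockouts 1 to 5. Both groups were tight and 0.34 apart at their nearest. From a mean of 9.04 ± 0.07 to one of 8.52 ± 0.06 (SD, n = 5 each), Slc8a1 fell to 69.5% of the control level (95% interval 64.7% to 74.6%; log2 difference -0.53, SE 0.05, adjusted p = 9.16e-05 by limma, exact permutation p = 0.00794).

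Atp2b1, on chromosome 10 at 98914630 to 99026143, encodes the plasma membrane calcium pump PMCA1, found in most cells. Its values in controls 1 to 5 were 9.38, 9.39, 9.31, 9.40 and 9.38, and in knockouts 1 to 5 they were 9.36, 9.37, 9.26, 9.40 and 9.38. The groups covered nearly the same range, and the log2 difference was -0.02 (95% interval -0.10 to 0.07, adjusted p = 0.796 by limma), which spans 93.0% to 105% of the control level.

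Of the magnesium genes, Trpm6 fell by a narrow margin. Trpm6, the epithelial magnesium channel fused to a kinase, lies on chromosome 19 at 18730177 to 18892521. Controls 1 to 5 measured 8.23, 8.19, 7.68, 7.86 and 7.77, and knockouts 1 to 5 measured 7.54, 7.71, 7.64, 7.44 and 7.54. Controls 1 and 2 stood above the other controls, and knockout 2 reached above control 3. The mean went from 7.95 ± 0.25 to 7.57 ± 0.10 (SD, n = 5 each), by -0.37 on the log2 scale (SE 0.10), to 77.3% of the control level (95% interval 66.2% to 90.2%), with adjusted p = 0.0449 by limma and exact permutation p = 0.0159. Without control 1 the difference was -0.30 (adjusted p = 0.0939 by limma) and without control 2 it was -0.31 (0.0846). The adjusted p by limma was also above the threshold without control 4 (0.0611) and without knockout 1 (0.0887), 2 (0.0590), 3 (0.0752), 4 (0.0982) or 5 (0.0604), and it was 0.05 with array weights.

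Trpm7 encodes the widely expressed channel kinase related to TRPM6 and lies on chromosome 2 at 126791558 to 126876261. It measured 9.65, 9.72, 9.55, 9.70 and 9.73 in controls 1 to 5 and 9.62, 9.63, 9.66, 9.67 and 9.63 in knockouts 1 to 5. All knockouts lay within the range of the controls (log2 difference -0.03, 95% interval -0.12 to 0.06, adjusted p = 0.686 by limma).

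Cnnm2, also on chromosome 19, lies at 46756834 to 46878580, 27.9 megabases from Trpm6. It measured 8.77, 8.76, 8.49, 8.48 and 8.49 in controls 1 to 5 and 8.39, 8.41, 8.31, 8.36 and 8.48 in knockouts 1 to 5. Controls 1 and 2 again stood apart, and controls 3 to 5 were close to knockout 5. The log2 difference of -0.21 (SE 0.07, 95% interval -0.36 to -0.06) did not pass (adjusted p = 0.0784 by limma, exact permutation p = 0.0159), and with quantile normalisation it was -0.22 with adjusted p = 0.0495. Controls 1 and 2 were the highest 2 controls for 3 of the 10 members (Calb1, Trpm6 and Cnnm2) and for 12.1% of all genes.

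**Figure D3:**
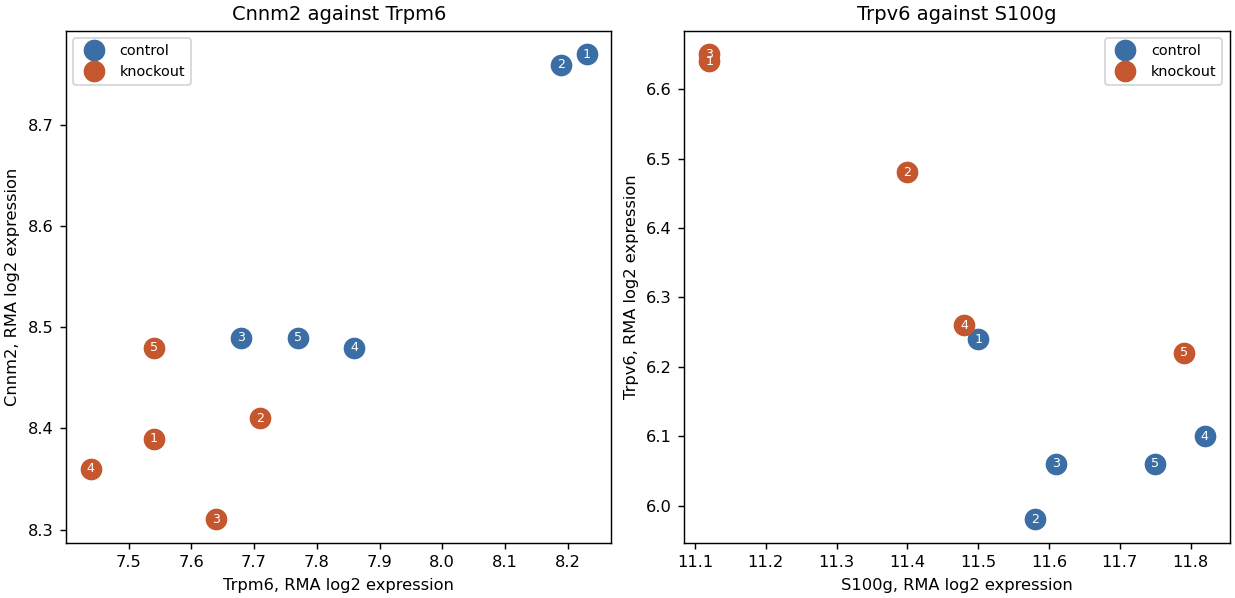
Left, Cnnm2 against Trpm6, and right, Trpv6 against S100g, as RMA log2 expression with 1 numbered point per kidney (controls blue, knockouts orange). Controls 1 and 2 lie apart at the upper right of the left panel. On the right, knockouts 1 and 3 combine the lowest S100g (11.12 in both) with the highest Trpv6 (6.64 and 6.65). These pairs have the highest and the lowest Pearson r of all pairs of the members after removing the group means (0.80 and -0.82). They are the extremes of a search, and Trpv6 is dim.

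Related genes were compared within each kidney as a log2 ratio, for 5 pairs, with two-sided exact permutation tests adjusted over the 5 pairs. Probe sets differ in brightness, so only the change of a ratio between groups is read, and a changed ratio shows unequal change of the pair's signals. Trpv6 and Pvalb were dim, above 71.0% and 86.1% of the negative control probe sets in controls. Their ratios with the brighter Trpv5 and Calb1 may therefore not show how unequally the RNA changed. The Slc8a1 over Atp2b1 ratio fell from -0.33 ± 0.06 to -0.84 ± 0.09 (SD, n = 5 each; difference -0.51, SE 0.05, exact p = 0.00794, adjusted 0.0397), with no overlap between the groups. The Trpv5 over Trpv6 ratio fell from 2.99 ± 0.07 to 2.58 ± 0.26 (difference -0.41, SE 0.12, exact p = 0.0238, adjusted 0.0397), and knockout 5 at 3.01 stayed among the controls (2.89 to 3.06). The Trpm6 over Trpm7 ratio fell from -1.73 ± 0.24 to -2.07 ± 0.11 (difference -0.34, SE 0.12, exact p = 0.0159, adjusted 0.0397), the controls ranging from -1.97 to -1.42 and the knockouts from -2.23 to -1.92.

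For the buffers no difference in change was detected. The Calb1 over S100g ratio differed by -0.27 (SE 0.15, exact p = 0.119, adjusted 0.149) and the Calb1 over Pvalb ratio by 0.12 (SE 0.10, exact p = 0.278, adjusted 0.278). Leaving out a kidney raises the smallest possible exact p to 0.0159. Adjusted over the 5 pairs, the Slc8a1 over Atp2b1 ratio then passed only without control 5, knockout 2 or knockout 5, the Trpv5 over Trpv6 ratio only without knockout 5, and the Trpm6 over Trpm7 ratio only without control 5 or knockout 2. The other adjusted p of these exact tests were 0.0529 to 0.0794. For Slc8a1 over Atp2b1 the groups stayed fully apart, so its exact p was 0.0159 whichever kidney was left out. Whether that ratio passed after adjustment turned on the exact p of the other pairs, not on its own values.

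**Figure D4:**
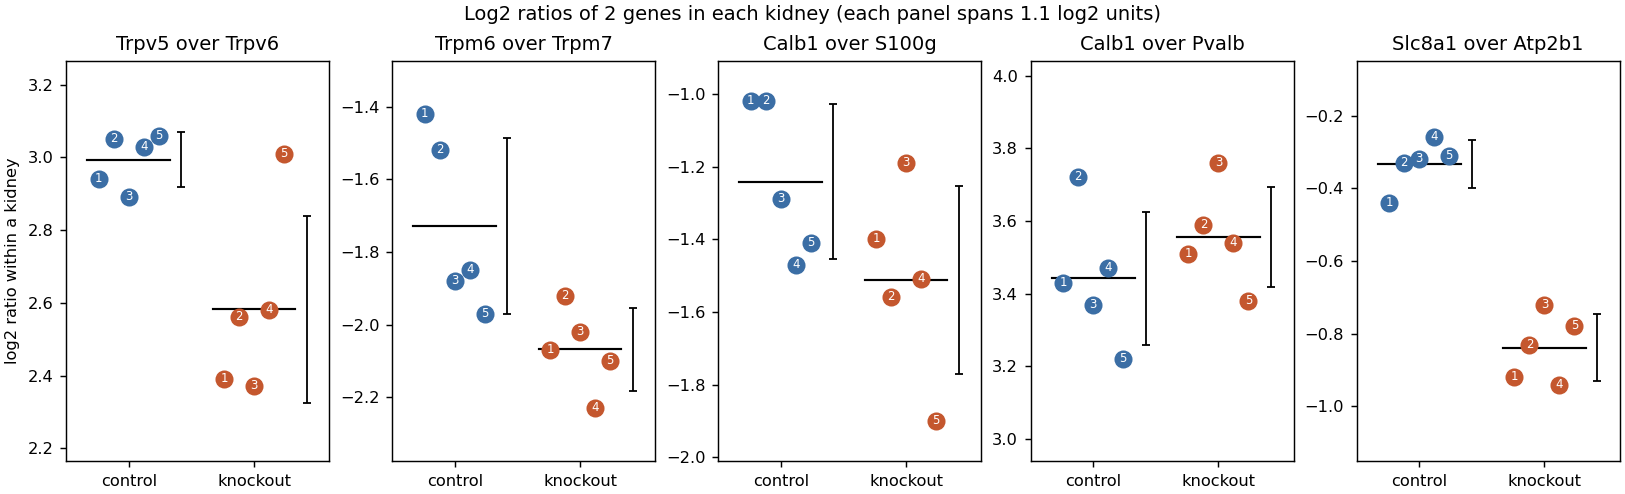
Log2 ratio of 2 genes within each kidney for the 5 pairs, with controls in blue and knockouts in orange, numbered as in the labels, group means as lines and SDs as bars. The groups are fully apart for Slc8a1 over Atp2b1 and overlap for the other pairs.

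Other genes of the same transport system were taken from lists. Of 73 measured genes on 5 lists, 17 fell and 2 rose, where 2.67% of all genes fell and 5.35% rose. The shares over all genes count many dim genes, and with dim genes left out 2665 of 19499 genes were called. The lists were chosen with earlier results of these data known, so the count is a description. Among 14 other calcium pumps, exchangers, channels, buffers and partners, 1 fell, 0 rose and 13 did not pass, with a median log2 difference of -0.04. The gene that fell was Itpr2, a channel that releases calcium from internal stores, at 76.7% of its control level (adjusted p = 0.00229 by limma). The pump relative Atp2b2 (-0.05), the exchanger relatives Slc8a2 (-0.04) and Slc8a3 (-0.11) and the buffer relative Calb2 (-0.04), given here after their values were seen, did not pass. Their signals were dim, above 85.0%, 70.9%, 50.2% and 21.2% of the negative control probe sets in controls, so little can be read from their differences. Of the 14 genes, 6 exceeded 95% of these probe sets in controls.

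Among 12 genes of calcium sensing and calcium-regulating hormones, 3 fell, 0 rose and 9 did not pass, with a median of -0.03. Casr, the calcium-sensing receptor, was at 65.1% of its control level (log2 difference -0.62, SE 0.08, adjusted p = 0.00112 by limma). Kl, the FGF23 co-receptor klotho, which is made in the distal tubule, was at 71.9% (-0.47, SE 0.06, adjusted p = 8.04e-04). Pth1r, the parathyroid hormone receptor, was at 84.0% (-0.25, SE 0.06, adjusted p = 0.0204), and did not pass without control 3 (0.0549) or without knockout 2 (0.0501).

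Of 23 other magnesium transport genes and regulators, 2 fell, 1 rose and 20 did not pass, with a median of -0.04. Egf, whose product raises TRPM6 activity, was at 51.3% of its control level (log2 difference -0.96, SE 0.09, adjusted p = 1.06e-04 by limma). Kcnj10, the basolateral potassium channel of the distal convoluted tubule, was at 73.1% (-0.45, SE 0.08, adjusted p = 0.00608). The gene that rose was Slc41a2, a magnesium carrier relative, 1.19-fold higher (0.25, SE 0.04, adjusted p = 0.00415). The Cnnm2 relatives Cnnm1 (-0.30, adjusted p = 0.0786), Cnnm4 (-0.27, adjusted p = 0.0893) and Cnnm3 (0.02), named after their values were seen, did not pass by limma.

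A list for the thick ascending limb, which reabsorbs most renal magnesium by a route between cells, had 6 of 9 measured genes lower, 1 higher and 2 that did not pass, with a median of -0.41. Of its 4 claudins, Cldn10 fell, Cldn16 rose, and Cldn14 (-0.02) and Cldn19 (-0.13) did not pass. The Cldn14 signal was dim, above 50.9% of the negative control probe sets in controls. The other 5 genes that fell were genes of transport through the cell (Slc12a1, Kcnj1 and Bsnd), a receptor (Ptger3) and a secreted protein (Umod). Cldn14, Cldn16, Cldn19, Slc12a1 and Kcnj1 were named after their values were seen. The 4 with the largest falls were the prostaglandin receptor Ptger3 (55.1% of the control level), the chloride channel subunit Bsnd (70.8%), the claudin Cldn10 (70.8%) and uromodulin, Umod (73.0%). Their adjusted p by limma ran from 2.32e-04 for Umod to 0.00469 for Bsnd. Cldn16, a claudin needed for magnesium and calcium passage, rose from 7.70 ± 0.08 to 8.15 ± 0.11 (SD, n = 5 each), 1.37-fold higher (adjusted p = 7.39e-04 by limma).

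Of 15 markers of the distal convoluted and connecting tubules outside the 10 genes, 5 fell, 0 rose and 10 did not pass, with a median of -0.12. Slc12a3, the thiazide-sensitive sodium-chloride cotransporter that defines the distal convoluted tubule, measured 12.45, 12.40, 12.33, 12.56 and 12.46 in controls 1 to 5 and 12.17, 12.37, 12.17, 12.41 and 12.59 in knockouts 1 to 5. The knockouts spread from below to above the controls, and the log2 difference was -0.10 (SE 0.08, adjusted p = 0.482 by limma). Slc16a7, a monocarboxylate carrier, was at 56.8% of its control level, the phosphatase inhibitor Ppp1r1a at 76.6%, the kinase Wnk4 at 76.9% and the kallikrein Klk1 at 80.4%. A whole-kidney value cannot tell fewer cells of a type from less RNA in each cell.

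**Figure D5:**
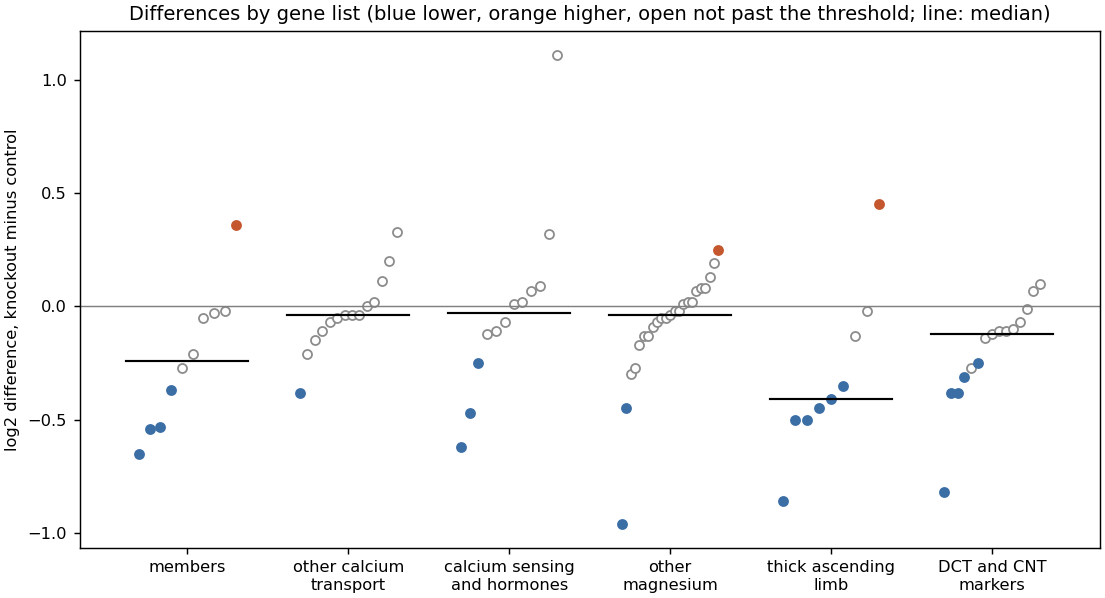
Log2 difference, knockout minus control, of each measured gene on 6 lists, with genes called lower in blue, called higher in orange and not past the threshold as open circles, and the median of each list as a line. DCT and CNT stand for the distal convoluted and connecting tubules. The medians are -0.24 for the 10 genes, -0.41 for the thick ascending limb list and between -0.12 and -0.03 for the other lists, and the open point at 1.11 is Cyp27b1.

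Markers of other cells moved with these results. All 6 macrophage markers and all 5 measured fibroblast markers rose; their mean log2 levels were 7.0 to 7.29 and 7.78 to 8.07 over controls, and 7.85 to 8.77 and 8.72 to 9.52 over knockouts. Of 5 intercalated cell markers 4 fell, of 6 proximal tubule markers 2 fell, and of 4 principal cell markers 2 rose and 1 fell. Of 5 urothelial markers 4 rose, with a median log2 difference of 0.58, and of 5 smooth muscle markers Tagln rose (0.43) and 4 did not pass. None of 3 measured podocyte markers and none of 5 endothelial markers passed by limma. The part of these shifts in the falls of the calcium and magnesium genes was not tested. Between arrays the correlation over all genes was 0.992 to 0.998, and in controls 13 of the 15 distal markers and all 6 proximal tubule markers exceeded 95% of the negative control probe sets. So did all 5 intercalated cell and all 5 endothelial markers, 4 of 5 fibroblast, 3 of 4 principal cell and 3 of 5 smooth muscle markers. Only 1 of 6 macrophage, 1 of 3 podocyte and 0 of 5 urothelial markers did, so a dim signal limits what those lists show.

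The genes whose kidney-to-kidney pattern was most like a called member were found by Pearson's r over the 10 kidneys, after removing the group means, among named genes. For Trpv6 they were Timp1 (r = 0.963), an inhibitor of matrix proteases, and the signalling adaptor Pik3ap1 (0.961). Timp1 (log2 difference 0.37, adjusted p = 0.0360 by limma) and Pik3ap1 (0.50, adjusted p = 0.00491) also rose. For Trpm6 they were Lmbr1l (0.966) and Mettl17 (0.949), for Slc8a1 Nsun6 (0.987) and Elk4 (0.965), for Calb1 Krtap1-3 (0.952) and Naa20 (0.934), and for Pvalb Prkaca-ps1 (0.971) and Bhmt2 (0.965). Of these 8, Lmbr1l passed by limma (-0.18, adjusted p = 0.0386). Each r is the highest or second highest of a search over all named genes in 10 kidneys.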

How the data were processed

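The values analysed are the log2 expression values that the authors deposited, made by RMA with genome build mm10, per the submitters' processing notes. Each array took 500 ng of RNA, per the labels' protocols. The log2 scale was read from the array medians (5.34 to 5.42). Of 72688 rows, 30604 had a single gene symbol (827 updated through Entrez identifiers), 2146 several and 39938 none; the last 2 kinds were left out. Rows sharing a symbol were averaged. Knockouts and controls were compared with limma 3.58.1 in R 4.3.3 (lmFit, eBayes with a mean-variance trend, no covariate, no filter), two-sided, with Benjamini-Hochberg adjustment over 30142 genes and a threshold of 0.05. Arrays give no read depth, so the 5 arrays per group limit precision. Brightness was set against 5222 negative control probe sets. Differences are knockout minus control. Promoter motifs were searched on both strands.

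The members and the lists were chosen with earlier results of these data known. Named were the 10 members, Stk11, Slc12a3, up to 4 called genes with the largest differences from each of 5 pathway lists, and the 2 genes most like each called member. Of 157 listed genes, 12 were not analysed here, having no row with their symbol alone. Alternatives were a replicate block, leaving out each kidney, quantile normalisation, leaving out dim genes, the brightest row per gene, no trend and array weights. Python 3.11.15, pandas 2.3.3 and matplotlib 3.10.9 were used.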

Additional observations from a re-analysis of the deposited data

Results flagged for a closer look

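Atp2b1 in control 3 measured 9.31, while the other controls were 9.38 to 9.40. The gap was 0.813 of the range of the controls, above Dixon's critical value of 0.71 for 5 samples. It was the only one of 54 groups checked over 27 named genes to be set apart, and chance alone gives about 1 in 20.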

How the results depend on the processing

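With 1 kidney left out the number of genes called ranged from 1526 to 3412, and that of the 10 members from 3 to 5. In the same settings the log2 ratio differences were -0.54 to -0.48 for Slc8a1 over Atp2b1, -0.52 to -0.36 for Trpv5 over Trpv6 and -0.40 to -0.26 for Trpm6 over Trpm7, with adjusted p up to 0.0794, in part because 5 against 4 kidneys allow no exact p below 0.0159. For Slc8a1 over Atp2b1 the exact p stood at 0.0159 in each. Using all kidneys, 4 members were called with array weights, 6 with quantile normalisation, and 5 with dim genes left out (19499 genes tested), with the brightest row per gene or without a trend. Each member has 1 row, so the brightest row per gene could not change the values of the members or their ratios. With the replicate block 2781 genes and 5 members were called, and no member's call changed. Same-numbered kidneys deviated together with r = 0.25, 0.312, 0.103, -0.078 and 0.194, and 3 of 5 controls and 4 of 5 knockouts were most like the kidney of their own number. This leans towards pairing, but the labels name no shared litter or day and not every r was over 0.1, so the main tests, those of the ratios included, were left unpaired. None of the 27 named genes and 5 ratios that were refitted reversed. The dim signal limits the size of the changes in Trpv6 and Pvalb, and in the ratios that hold them.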

Other observations

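Of the vitamin D genes that govern calcium uptake, Cyp27b1 and Cyp24a1 varied widely between kidneys within each group (SD 0.97 and 1.21 over controls, 0.66 and 0.73 over knockouts), and Vdr less so (0.20 and 0.14). They are given here after their values were seen. Cyp27b1, the enzyme that activates vitamin D, measured 9.48, 9.10, 7.67, 7.26 and 7.77 in controls 1 to 5 and 10.16, 8.82, 9.18, 8.72 and 9.96 in knockouts 1 to 5 (log2 difference 1.11, SE 0.42, adjusted p = 0.135 by limma). Cyp24a1, the enzyme that inactivates it, measured 9.35, 8.07, 9.76, 10.91 and 11.01 in the controls and 9.37, 9.17, 9.11, 10.13 and 10.79 in the knockouts (-0.11, SE 0.51, adjusted p = 0.921). Vdr, the vitamin D receptor, measured 10.59, 10.54, 10.82, 10.96 and 10.98 in the controls and 10.48, 10.65, 10.57, 10.72 and 10.85 in the knockouts (-0.12, adjusted p = 0.472). Controls 1 and 2, which had the highest Trpm6 and Cnnm2, thus also had the highest Cyp27b1 and the lowest Cyp24a1 and Vdr of the controls. Whether these go together for a common reason was not tested.

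Knockout 5 was the highest of the knockouts for 5 of the 10 members (S100g, Trpv5, Slc8a1, Pvalb and Cnnm2), for 11 of the 17 pathway genes called lower, and for 58.2% of the 806 genes called lower over the whole array. It also had the highest Stk11 of the knockouts (9.31, the others 9.07 to 9.21) and the lowest macrophage marker level (7.85, the others 8.16 to 8.77). Its Calb1 (9.89) and Trpm6 (7.54) were not the highest. The fibroblast marker level was lowest in knockout 4 (8.72), with knockout 5 at 8.74. For the urothelial markers knockout 5 (7.77) stood below knockout 2 alone (7.86). The array weight of knockout 5 was the lowest of the knockouts (0.679).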
